A study of Mus musculus with 27 samples.

Results

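The genes described here are 54 that drive or carry out cell division: 25 that act around DNA replication, 26 that act in mitosis and 3 of the G1 phase. They were chosen by symbol from a list of known cell cycle genes, without a threshold on any measured value, out of 56691 genes in the deposited table. Each symbol matched 1 row, and all 54 passed the filter on low counts that left 15115 genes for testing.

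RNA was sequenced from mouse stomach organoids, small epithelial cultures grown in Matrigel in a proliferative medium, in 7 groups of 3 libraries. Wild-type organoids came from Mist1Cre/ERT2;RFPLSL mice, in which tamoxifen-inducible Cre is driven from the Mist1 locus and switches on a red reporter. They are labelled Mist1+ and WT and were taken at passages 5, 10 and 15. Knockout organoids came from Gpx4F/F;Mist1Cre/ERT2;RFPLSL mice, which add a floxed Gpx4 gene, are labelled Mist1+ and Gpx4 KO, and were taken at the same passages. A further group, labelled Mist1- and WT, was taken at passage 5. The stated sort keeps RFP+ cells, and how Mist1- cells were obtained is not given in the sources used here, nor are the age of the organoid donors, the number of mice and when Cre was induced. It is also not stated if libraries of the same group were grown as independent cultures. The p-values therefore reflect variation from library to library, which may be technical. In bulk RNA, fewer cells in a phase and less RNA per cell cannot be told apart.

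A dividing cell passes through G1, in which D-type cyclins start to inactivate the retinoblastoma protein, then S phase, in which DNA is copied, and G2 and mitosis, in which chromosomes are condensed and segregated. E2F factors switch on replication genes at the G1 to S transition, commonly through GC-rich sites in their promoters. Mitotic genes are held down early and induced later by complexes that include MuvB, MYBL2 and FOXM1, commonly through a cell cycle homology region (CHR) near the start site, often beside CCAAT boxes. In the gastric corpus, division is mostly found in isthmus progenitors, while pit cells at the surface are largely non-dividing.

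Both promoter classes can be read in the sequences of members. RefSeq promoters (GRCm38.p6, from 250 bases before to 50 after the start) were matched to 41 of the 54 members, 20 of them replication genes with 22 promoters and 20 mitotic with 20. The E2F letters were TTCGCGC, then also TTGGCGC, as well as TTCCCGC and lastly TTGCCGC. Any of them, on either strand, was in 63.6% of replication promoters, 15.0% of mitotic promoters and 9.6% of all 32851 promoters. The first and second of these overlap where they lie on opposite strands. The CHR letters, TTTGAA or else TTCGAA, were in 22.7% of replication, 70.0% of mitotic and 19.2% of all promoters. CCAAT was in 72.7%, 80.0% and 37.4%, and CHR letters together with CCAAT were in 22.7%, 70.0% and 7.5%. A match is a description of letters, not a bound site. Of 5 members, 2 from replication and 3 from mitosis, the bases from -200 to 20 around the start (position 1) are printed below along the gene's strand to show the contrast, with every E2F, CHR and CCAAT match on either strand in capitals.
Mcm5 (replication, chr8:75109309-75109528, plus strand): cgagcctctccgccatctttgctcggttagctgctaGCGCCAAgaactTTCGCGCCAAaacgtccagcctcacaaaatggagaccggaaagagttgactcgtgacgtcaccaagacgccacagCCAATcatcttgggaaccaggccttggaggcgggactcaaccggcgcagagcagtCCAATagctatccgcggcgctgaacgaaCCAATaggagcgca
Mcm6 (replication, chr1:128359686-128359905, minus strand): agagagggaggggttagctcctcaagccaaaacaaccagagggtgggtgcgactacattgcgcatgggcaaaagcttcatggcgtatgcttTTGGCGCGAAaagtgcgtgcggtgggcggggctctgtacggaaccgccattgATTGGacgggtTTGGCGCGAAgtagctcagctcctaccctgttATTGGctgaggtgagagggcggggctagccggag
Ccnb2 (mitotic, chr9:70421535-70421754, minus strand): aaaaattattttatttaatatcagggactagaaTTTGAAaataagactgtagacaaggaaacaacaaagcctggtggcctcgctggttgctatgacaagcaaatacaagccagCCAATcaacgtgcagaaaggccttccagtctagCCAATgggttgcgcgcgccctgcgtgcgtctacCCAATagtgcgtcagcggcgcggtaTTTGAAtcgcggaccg
Cdk1 (mitotic, chr10:69352893-69353112, minus strand): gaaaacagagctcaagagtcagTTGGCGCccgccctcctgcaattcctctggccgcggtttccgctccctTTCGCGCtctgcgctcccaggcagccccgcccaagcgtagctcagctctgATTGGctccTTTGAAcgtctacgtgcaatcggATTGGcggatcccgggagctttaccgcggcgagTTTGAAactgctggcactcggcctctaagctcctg
Top2a (mitotic, chr11:99024170-99024389, minus strand): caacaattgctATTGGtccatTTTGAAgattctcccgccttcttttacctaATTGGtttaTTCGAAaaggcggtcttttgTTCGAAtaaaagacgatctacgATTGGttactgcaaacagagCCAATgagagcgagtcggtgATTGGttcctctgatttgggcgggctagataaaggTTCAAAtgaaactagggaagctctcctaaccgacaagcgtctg
These 5 were chosen because they hold the letters, so their contrast follows from the choice. Other members go against it: Mcm2 and Cdc45 held CHR and no E2F letters, and Ccnb1 held E2F and no CHR letters. The Mcm5 and Mcm6 windows held E2F letters and CCAAT and no CHR letters. The Ccnb2 and Top2a windows held CHR letters and CCAAT and no E2F letters, and Cdk1 held all 3. Each window ends in the first 20 bases of the transcript.

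The 21 libraries held 13805585 to 19608956 counts in genes. Levels below are CPM, counts per 1e6 after TMM scaling of each library. Fold changes are log2 ± SE from edgeR's quasi-likelihood test, and rose, fell, higher or lower mean a Benjamini-Hochberg adjusted p under 0.05 over all genes tested. Libraries of a group were close except in wild type at passage 15, whose biological coefficient of variation was 21.06%, against 1.89% to 3.07% in the other groups. That spread enters every p-value, because the groups share 1 estimate of it per gene. Gpx4 transcripts were counted in all knockout libraries, at 98.2 to 101 CPM at passage 5, 88.1 to 100.5 at passage 10 and 83.1 to 87.8 at passage 15, against 124 to 134, 112 to 125 and 104 to 196 in wild type. The difference passed the test at passages 5 (log2 -0.38 ± 0.14, adjusted p = 0.0362) and 15 (log2 -0.72 ± 0.14, adjusted p = 0.000215) and not at passage 10 (log2 -0.30 ± 0.14, adjusted p = 0.094), and these gene totals do not resolve the deleted exons. With libraries scaled by their totals alone, the share of all called genes that were higher moved from 53.7% to 43.4% for Mist1+ against Mist1-, from 43.3% to 60.9% and from 46.3% to 60.4% for knockout against wild type at passages 5 and 10, from 48.1% to 60.4% for wild type at passage 15 against 5, and from 51.5% to 38.0% for the interaction of genotype with passage 15.

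The labelled tissue was checked by its markers. All 6 epithelial markers (Epcam, Cdh1, Krt8, Krt18, Krt19 and Cldn18) were expressed, with summed levels of 6777 to 11989 CPM over the 21 libraries. Summed markers of fibroblasts were at 0.177 to 4.06 CPM, with Dcn and Lum at 0 counts, of endothelium at 0.212 to 2.54 CPM, of squamous cells at 0.3 to 3.02 CPM and of immune cells at 2.85 to 18.3 CPM, most of it Cd68. Markers of other stomach cell types were only partly present. The low-count filter was passed by 4 of 5 neck, 2 of 6 chief, 2 of 5 parietal, 1 of 7 enteroendocrine and 2 of 5 tuft cell markers. The chief cell genes Pga5, Lipf and Chia1 had 0 counts. Bhlha15, the gene of Mist1, was at a mean of 10.4 CPM in Mist1- and 5.5 CPM in Mist1+ organoids at passage 5. The 7 pit cell markers moved with the groups. Their summed level was 5222 to 5365 CPM in wild type at passage 5, 7139.5 to 7394 at passage 10 and 941 to 1568 at passage 15, against 1562 to 1592, 2438 to 2634 and 4861 to 4945 in knockout, and 726 to 756 in Mist1-. The part of pit cell content in the results on cell cycle genes was not tested.

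Members differed widely in level. Per exonic length, the D-type cyclins among the members were highest, Ccnd1 at 169 and Ccnd2 at 163 FPKM on average over the 21 libraries, followed by the sliding clamp Pcna at 88.0 and the topoisomerase Top2a at 69.4 FPKM. Cdc25c, Gins2 and Pole were lowest, at 4.06, 4.21 and 4.78 FPKM. The strand setting of the counting is not stated, and 7 members share over 10% of their exonic bases with a gene on the opposite strand. They are Gins2 (70.7%), Kif20a (31.8%), Ccnd1 (21.9%), Rfc4 (13.4%), Mcm7 (13.0%), Ccne2 (10.5%) and Ccna2 (10.4%). Their counts are uncertain for that reason. Pcna, Tyms, Ccnb1 and Ccnb2 have named pseudogenes, which can take or add reads.

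**Figure D1:**
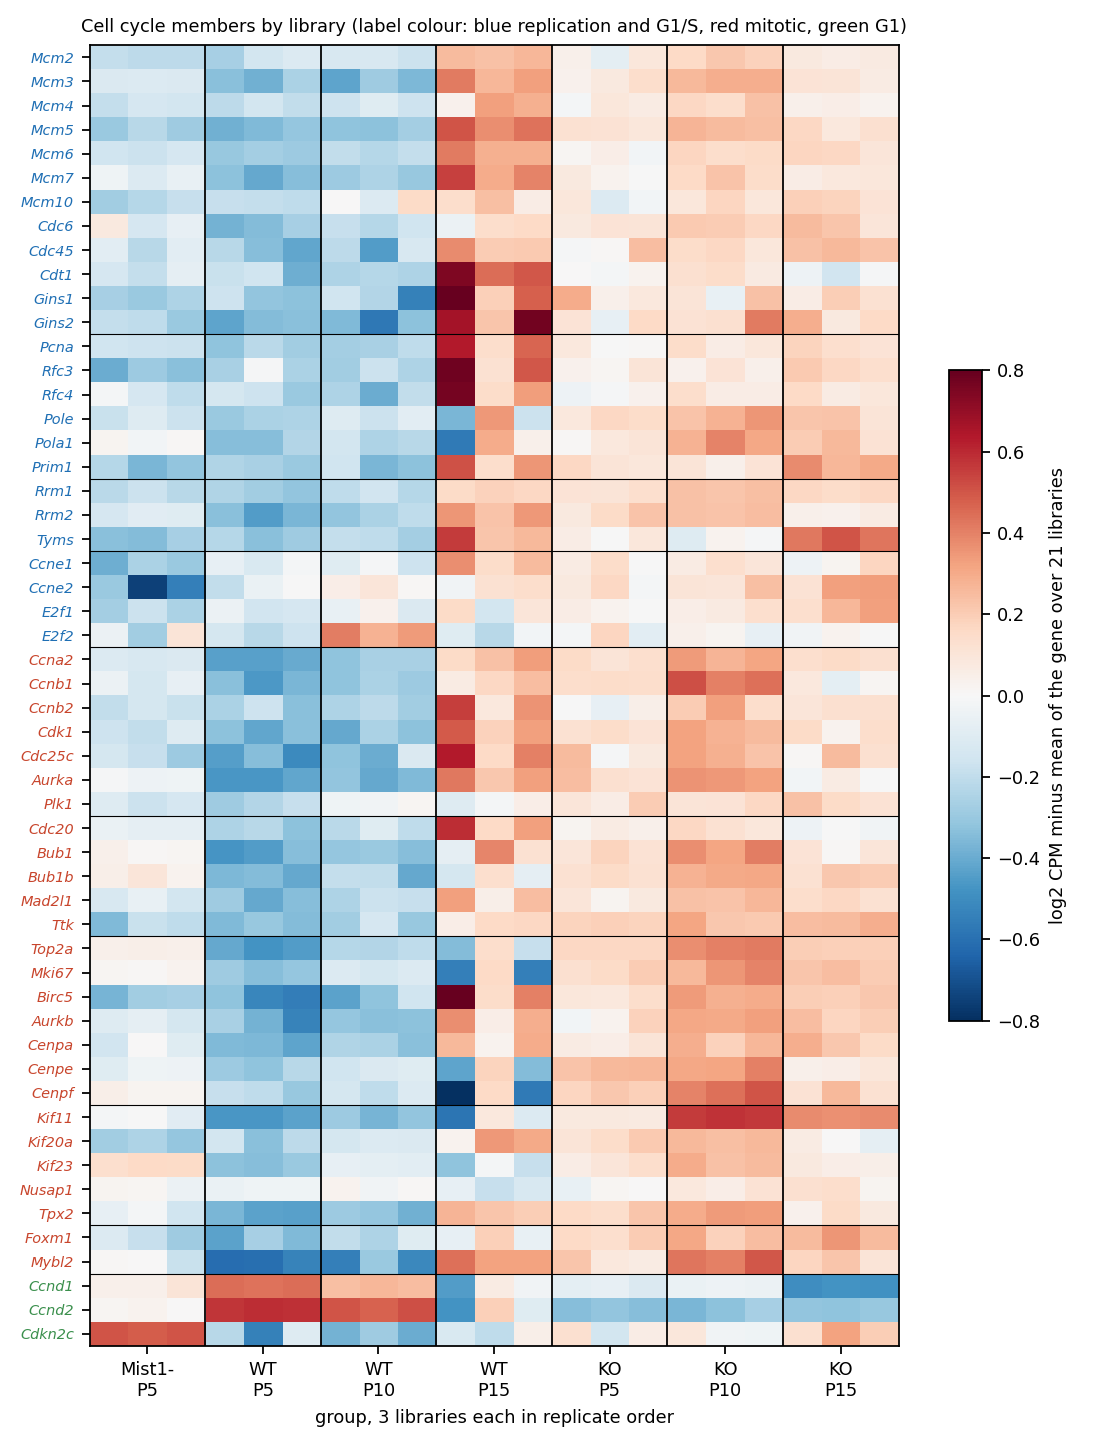
Levels of the 54 members (rows, by role) in the 21 libraries (columns, 3 per group), as log2 CPM minus the mean of the gene over all libraries. Most replication and mitotic members are low in the 6 wild-type libraries of passages 5 and 10 and high in knockout, while Ccnd1 and Ccnd2 run the other way. The wild-type passage 15 libraries differ among themselves, as at Cenpf and Birc5.

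Knockout organoids at passage 5 had more replication and mitotic transcripts and fewer of the D-type cyclins Ccnd1 and Ccnd2 than wild type. Of the 54 members, 45 were higher, against a background of 13.0% of all genes tested, and 2 were lower, against 17.0%. Of the 25 replication members 19 rose and 0 fell (median log2 0.33), and of the 26 mitotic members 25 rose and 0 fell (median 0.51), while the median over all genes tested was 0. The largest change among these 51 genes was 1.65-fold, in Mybl2.

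Every one of the 12 origin licensing and helicase genes rose, from 0.19 in Mcm10 and Mcm2 to 0.46 in Mcm5. Mcm5, a subunit of the MCM helicase that unwinds DNA at the fork, stood at 82.3, 84.0 and 86.5 CPM in wild type and at 117, 116 and 114 CPM in knockout libraries (log2 0.46 ± 0.048, adjusted p = 1.89e-07). Cdc6, which loads that helicase onto origins, went from 33.5, 34.2 and 36.3 to 46.3, 47.3 and 47.0 CPM (log2 0.43 ± 0.067, adjusted p = 3.74e-05). In both genes each knockout library lay above each wild-type library. Of the 6 replication fork genes 4 rose. Pcna, the clamp that holds DNA polymerases on the template, stood at 166, 179 and 171 CPM in wild type and 220.0, 207 and 209 in knockout (log2 0.30 ± 0.079, adjusted p = 0.00596), and the largest change was in Pole, the catalytic subunit of the leading strand polymerase (log2 0.40 ± 0.11, adjusted p = 0.00841). The clamp loader subunits Rfc3 (0.22, adjusted p = 0.149) and Rfc4 (0.20, adjusted p = 0.195) did not pass. All 3 genes of deoxynucleotide supply rose. Rrm2, the regulated subunit of ribonucleotide reductase, stood at 102, 93.6 and 99.2 CPM in wild type and 135, 143 and 149.9 in knockout (log2 0.54 ± 0.053, adjusted p = 8.12e-08), the largest value among replication members, and Tyms, which makes thymidylate, had the smallest of the 3 (log2 0.33 ± 0.071, adjusted p = 0.00116).

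The 4 regulators of the G1 to S transition counted among the replication members did not pass the test. Ccne1, a cyclin that activates CDK2, stood at 25.6, 24.7 and 26.5 CPM in wild type and 28.2, 29.8 and 26.8 in knockout (log2 0.14 ± 0.075, adjusted p = 0.172), just apart. Its paralogue Ccne2 stood at 26.5, 29.4 and 30.4 in wild type against 32.2, 34.2 and 30.1 CPM, with overlapping groups (log2 0.16 ± 0.095, adjusted p = 0.225). The transcription factors E2f1, at 20.1, 18.6 and 18.9 against 21.7, 21.2 and 20.8 CPM (log2 0.15 ± 0.081, adjusted p = 0.195), and E2f2, at 24.0, 22.7 and 23.7 against 26.3, 30.0 and 25.0 CPM (log2 0.21 ± 0.089, adjusted p = 0.0843), lay apart between groups without passing. Whether these 4 differ in response from the 21 other replication members was not tested.

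Among mitotic members, all 7 mitotic entry genes rose, from 0.24 in cyclin Ccnb2 to 0.62 in the centrosomal kinase Aurka. Cyclin A2, Ccna2, which acts in S phase and G2, stood at 125, 126 and 128 CPM in wild type and 189, 182 and 187 in knockout (log2 0.56 ± 0.048, adjusted p = 1.36e-08). Ccnb1, the cyclin that activates CDK1 at mitotic entry, stood at 89.3, 81.8 and 87.3 in wild type against 124, 125 and 124 CPM (log2 0.53 ± 0.058, adjusted p = 3.75e-07). Its kinase partner Cdk1 stood at 99.1, 93.3 and 98.9 in wild type against 136, 138 and 135 CPM (log2 0.49 ± 0.065, adjusted p = 5.94e-06). None of these groups overlapped. All 5 spindle checkpoint genes rose, from 0.31 in the APC activator Cdc20 to 0.55 in the checkpoint kinase Bub1. All 7 chromosome and kinetochore genes rose, from 0.43 in Cenpf to 0.61 in Top2a, the topoisomerase that untangles sister chromatids, at 460.2, 439.8 and 449 against 685, 688 and 687 CPM. Mki67, whose protein coats mitotic chromosomes and marks cycling cells, stood at 536, 516 and 526 CPM in wild type and 712, 726 and 749.9 in knockout (log2 0.47 ± 0.12, adjusted p = 0.00407).

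Of 5 spindle and cytokinesis genes 4 rose, from 0.39 in the kinesin Kif20a to 0.59 in the spindle assembly factor Tpx2. Nusap1, which bundles spindle microtubules, was the mitotic member that did not pass (0.03, adjusted p = 0.713). Both mitotic transcription factors rose. Mybl2 showed the largest rise of all 54 members, at 22.9, 23.0 and 24.1 CPM in wild type and 41.2, 37.4 and 36.8 in knockout (log2 0.72 ± 0.076, adjusted p = 2.53e-07, 1.65-fold), and Foxm1 stood at 37.7, 42.3 and 39.8 in wild type against 57.0, 55.9 and 58.6 CPM (log2 0.52 ± 0.073, adjusted p = 1.14e-05).

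The G1 members went the other way in part. Ccnd1, a D-type cyclin that partners CDK4 and CDK6, stood at 1065, 1059 and 1066 CPM in wild type and 740.3, 747 and 721 in knockout (log2 -0.53 ± 0.08, adjusted p = 2.81e-05). Ccnd2, its paralogue, fell further, from 2215, 2247 and 2241 to 1176, 1198 and 1179 CPM (log2 -0.92 ± 0.097, adjusted p = 2.55e-07, 1.89-fold lower). Cdkn2c, which encodes the CDK4 and CDK6 inhibitor p18, was higher at 21.7, 17.8 and 20.7 against 16.9, 13.5 and 18.4 CPM (log2 0.30 ± 0.1, adjusted p = 0.0297), with knockout replicate 2 below wild-type replicate 3. Other genes of this step, named after their values were seen, shared these directions only in part. The inhibitor gene Cdkn1b was higher, as Cdkn2c was (log2 0.29 ± 0.085, adjusted p = 0.011). Ccnd3, the third D-type cyclin, stood at a mean of 47.9 CPM in knockout and 46.7 in wild type (log2 0.04, adjusted p = 0.741), and the inhibitor gene Cdkn2b was lower (log2 -0.68 ± 0.1, adjusted p = 2.3e-05). When 1 of the 6 compared libraries was left out, the calls of Ccnb2, Cdkn2c, Cdt1, Cenpf, Gins1, Mcm10, Mcm2 and Pola1 were lost in at least 1 fit.

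**Figure D2:**
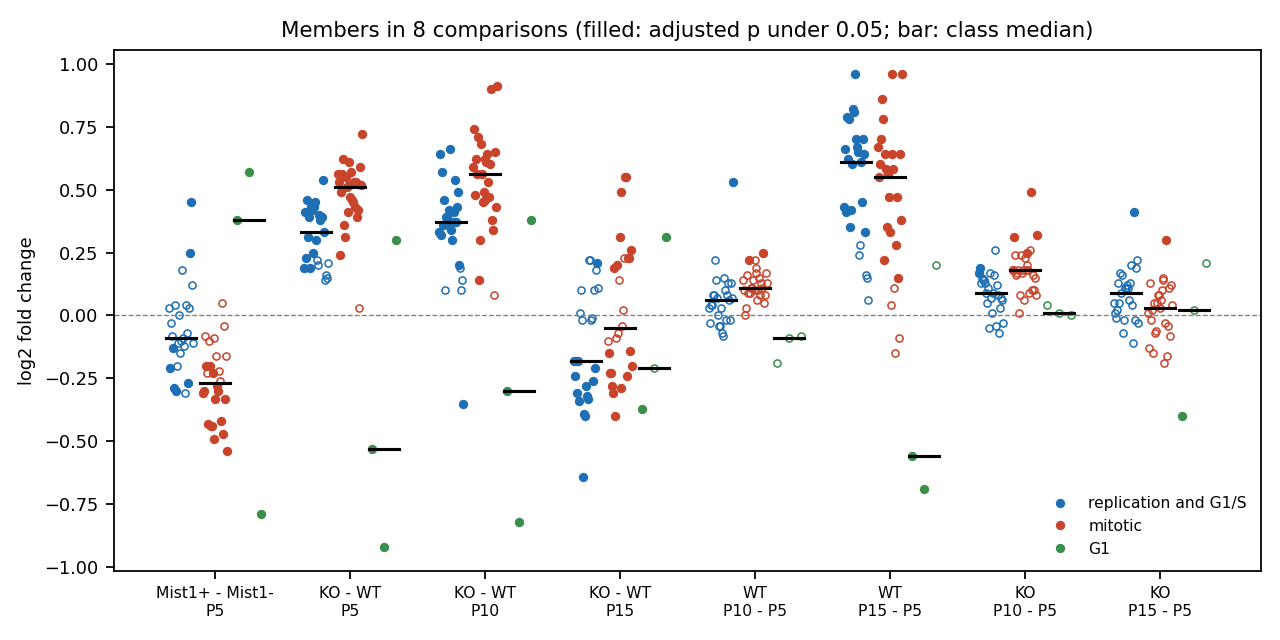
Log2 fold changes of the 54 members in 8 comparisons, by class (blue replication and G1/S, red mitotic, green G1). Points are genes, filled where the adjusted p is under 0.05, and bars are class medians, for example 0.33 and 0.51 for replication and mitotic members in knockout against wild type at passage 5.

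At passage 10, in other libraries, knockout organoids again had higher levels of most members. Of 54, 46 rose, against 15.9% of all genes tested, and 3 fell, against 18.5%. Replication members counted 20 higher and 1 lower (median 0.37) and mitotic members 25 higher and 0 lower (median 0.56), with a median of -0.01 over all genes. The calls at both passages shared 44 members that were higher and 2 that were lower.

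Among licensing genes the range of those that rose was 0.32 in Mcm4 to 0.66 in Gins2, a subunit of the GINS complex of the helicase, and Mcm10, an activator of that helicase, did not pass (0.10, adjusted p = 0.283). The Gins2 counts are uncertain, since 70.7% of its exonic bases overlap an opposite-strand gene. Mcm5 stood at 85.9, 85.4 and 88.7 CPM in wild type and 129.5, 128 and 127 in knockout (log2 0.57 ± 0.047, adjusted p = 8.26e-09). Cdc6 stood at 38.4, 37.3 and 39.1 in wild type against 50.6, 50.5 and 49.1 CPM (log2 0.39 ± 0.067, adjusted p = 0.000111). All 6 replication fork genes rose, from 0.30 in Rfc3 to 0.54 in the primase-associated polymerase Pola1. Pcna stood at 172, 173 and 181 CPM in wild type and 229.8, 216 and 221 in knockout (log2 0.34 ± 0.079, adjusted p = 0.00185). Nucleotide supply genes rose from 0.20 in Tyms to 0.49 in Rrm2, at 103, 108 and 111 against 151, 150.4 and 152 CPM.

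E2f2 was the replication member that fell. It stood at 35.4, 32.3 and 33.8 CPM in wild type and 27.3, 27.0 and 25.4 in knockout at passage 10 (log2 -0.35 ± 0.086, adjusted p = 0.0032), so all wild-type libraries lay above all knockout libraries. Knockout levels were close to those at passage 5, while wild type had risen. E2f1, at 20.0, 21.3 and 19.1 against 21.6, 21.9 and 22.9 CPM (adjusted p = 0.196), and Ccne2, at 31.5, 32.5 and 30.6 against 32.7, 32.6 and 36.0 CPM (adjusted p = 0.453), did not pass. Ccne1 stood at 25.1, 26.7 and 23.9 against 28.1, 29.6 and 28.8 CPM (log2 0.19 ± 0.075, adjusted p = 0.0524).

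Mitotic members showed the largest values at passage 10. Mybl2 stood at 24.0, 28.6 and 24.4 CPM in wild type and 47.7, 46.6 and 49.8 in knockout (log2 0.91 ± 0.075, adjusted p = 6.06e-09), and Kif11, the motor that pushes spindle poles apart, rose by nearly as much (log2 0.90 ± 0.097, adjusted p = 3.25e-07). Ccnb1 led the mitotic entry genes, at 90.3, 94.4 and 92.0 against 161, 149 and 153 CPM (log2 0.74 ± 0.057, adjusted p = 2.36e-09), and the polo kinase Plk1 had their smallest value (log2 0.14 ± 0.055, adjusted p = 0.0483). Ccna2 stood at 136, 142 and 142 in wild type against 215, 205 and 212 CPM (log2 0.59 ± 0.048, adjusted p = 5.03e-09), and Cdk1 at 93.7, 104 and 99.1 in wild type against 156, 151 and 148 CPM (log2 0.62 ± 0.065, adjusted p = 2.47e-07). In each of these genes the knockout libraries lay above the wild type. Checkpoint genes rose from 0.30 in Cdc20 to 0.68 in Bub1, and chromosome and kinetochore genes from 0.46 in Mki67 to 0.64 in Aurkb, the kinase of the chromosomal passenger complex. Top2a stood at 522, 521 and 532 against 793, 809.7 and 816 CPM (log2 0.62 ± 0.076, adjusted p = 1.97e-06), and Mki67 at 605, 592 and 604 against 782, 835 and 859.5 CPM. Foxm1 stood at 44.4, 42.8 and 47.5 in wild type against 63.1, 57.9 and 60.6 CPM (log2 0.43 ± 0.072, adjusted p = 7.67e-05), Kif23 had the smallest change of the spindle genes that rose (0.34), and Nusap1 did not pass (0.08, adjusted p = 0.225).

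Ccnd1 and Ccnd2 were lower in knockout at passage 10 too. Ccnd1 stood at 925, 938 and 927 CPM in wild type and 754, 760.1 and 756 in knockout (log2 -0.30 ± 0.08, adjusted p = 0.00639), and Ccnd2 at 2116, 2068 and 2132 in wild type against 1159.7, 1187 and 1241 CPM (log2 -0.82 ± 0.097, adjusted p = 1.19e-06). Cdkn2c was higher, at 21.2, 19.4 and 19.4 against 15.1, 16.2 and 14.9 CPM (log2 0.38 ± 0.1, adjusted p = 0.0068). No groups overlapped. Calls of Gins1, Plk1, Rfc3, Rfc4 and Tyms were lost in at least 1 fit without 1 compared library. The test of the difference between passages 10 and 5 in the genotype effect called 0 members higher, against 3.13% of all genes, and 1 lower, against 2.81%, which was E2f2 (log2 -0.56 ± 0.12, adjusted p = 0.00669). For 53 members such a difference was not detected at this spread. Without the wild-type passage 15 libraries in the fit, 7 members were higher and 2 lower in that test, and with DESeq2 1 was higher. The fit without those libraries called 3018 of all genes, against 473 higher and 424 lower in the main fit. The shares above are therefore not its background.

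**Figure D3:**
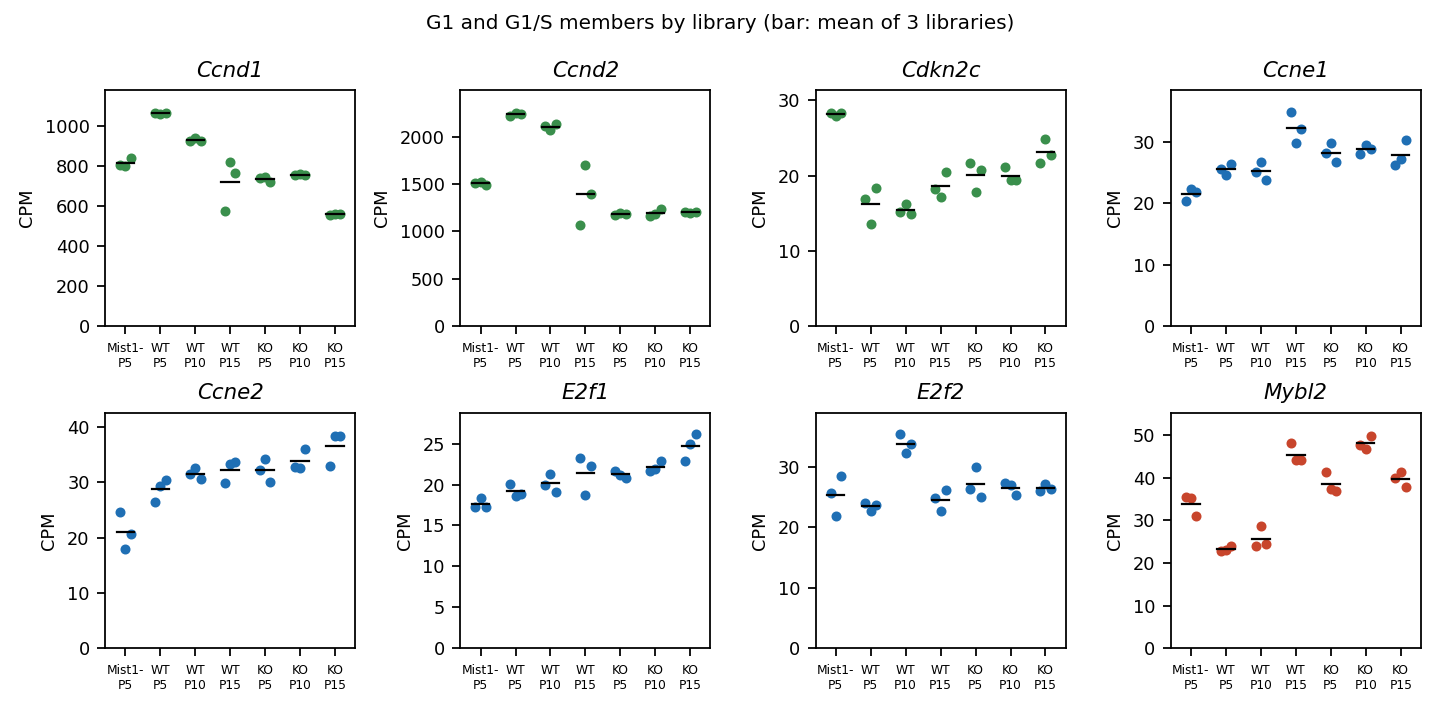
CPM of the 3 G1 members (green), 4 G1/S regulators (blue) and Mybl2 (red) in each library, with the mean of each group as a bar. Ccnd1 and Ccnd2 are highest in wild type at passages 5 and 10, Cdkn2c in Mist1- organoids, and E2f2 in wild type at passage 10.

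Mist1+ organoids at passage 5 had lower mitotic transcripts than Mist1- organoids, while 18 of 25 replication members did not pass. This comparison uses the same wild-type passage 5 libraries as the first one, so the results are not independent of each other. Of 54 members 4 were higher, against 18.8% of all genes tested, and 22 lower, against 16.2%. Among mitotic members 0 rose and 16 fell (median -0.27), and among replication members 2 rose and 5 fell (median -0.09), beside a median of 0 over all genes. With library totals alone, without the wild-type passage 15 libraries, or with only the groups compared, 9 replication members fell instead of 5. In this order 20, 22 and 22 mitotic members fell instead of 16. Library totals alone called 3124 of all genes lower, against 2448 in the main fit, so the shares above are not its background. The shares for the other 2 fits are not given here.

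The mitotic members that fell ranged from -0.54 in Mybl2 to -0.20 in Cdc20. Mybl2 stood at 35.5, 35.2 and 31.1 CPM in Mist1- libraries (log2 -0.54 ± 0.077, adjusted p = 9.18e-06). Top2a stood at 629, 631 and 629 CPM there (log2 -0.49 ± 0.076, adjusted p = 2.95e-05) and Mki67 at 661, 658 and 666 CPM (log2 -0.33 ± 0.12, adjusted p = 0.0338), both above every wild-type passage 5 library. Ccna2 stood at 157, 155 and 157 CPM (log2 -0.31 ± 0.048, adjusted p = 2.91e-05) and Ccnb1 at 109, 102 and 108 CPM (log2 -0.30 ± 0.058, adjusted p = 0.000267). Cdk1 stood at 111, 108 and 116 CPM (log2 -0.20 ± 0.066, adjusted p = 0.019). Foxm1, at 47.2, 44.8 and 41.8 CPM, did not pass (log2 -0.16 ± 0.074, adjusted p = 0.1). Aurka (-0.43) and Cdk1 marked the ends of the mitotic entry genes that fell, Bub1 (-0.44) and Cdc20 those of the checkpoint genes, Top2a and Aurkb (-0.28) those of the chromosome genes, and Kif23 (-0.47) and Tpx2 (-0.33) those of the spindle genes.

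Of replication members, Mcm3 (-0.21), Mcm6 (-0.13), Mcm7 (-0.29), Cdc6 and Rrm2 were lower in Mist1+ organoids. Cdc6 stood at 46.2, 39.8 and 41.8 CPM in Mist1- (log2 -0.30 ± 0.068, adjusted p = 0.0016) and Rrm2 at 117, 120.1 and 119.5 CPM (log2 -0.27 ± 0.053, adjusted p = 0.000289). Mcm5, at 87.4, 91.9 and 88.3 CPM (log2 -0.08 ± 0.048, adjusted p = 0.198), and Pcna, at 186, 185 and 184 CPM (log2 -0.10 ± 0.079, adjusted p = 0.334), did not pass. Both E cyclins were higher in Mist1+ organoids. Ccne1 stood at 20.4, 22.4 and 21.8 CPM in Mist1- (log2 0.25 ± 0.077, adjusted p = 0.0146) and Ccne2 at 24.7, 18.0 and 20.6 CPM (log2 0.45 ± 0.098, adjusted p = 0.00109), each below all wild-type passage 5 libraries. E2f1, at 17.2, 18.4 and 17.3 CPM (adjusted p = 0.27), and E2f2, at 25.7, 21.8 and 28.5 CPM (adjusted p = 0.373), did not pass.

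All 3 G1 members differed. Ccnd1 stood at 803, 802 and 842 CPM in Mist1- and was higher in Mist1+ (log2 0.38 ± 0.08, adjusted p = 0.000702), and Ccnd2 stood at 1505, 1521 and 1494 CPM (log2 0.57 ± 0.096, adjusted p = 7.41e-05). Cdkn2c, at 28.3, 27.9 and 28.3 CPM in Mist1-, the highest of the 7 groups, was lower in Mist1+ (log2 -0.79 ± 0.1, adjusted p = 2e-06, 1.73-fold). Calls of Aurkb, Ccne1, Cdc20, Cdk1, Mcm6 and Mki67 were lost in at least 1 fit without 1 compared library.

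Between passages 5 and 10 few members passed the test in wild-type organoids. Of 54 members 3 rose, against 2.04% of all genes tested, and 0 fell, against 2.84%. E2f2 rose (log2 0.53 ± 0.088, adjusted p = 0.000559), as did Plk1 (log2 0.22 ± 0.055, adjusted p = 0.0212) and Kif23 (log2 0.25 ± 0.058, adjusted p = 0.0125), a motor of the cytokinetic midzone. Replication members had a median of 0.06 and mitotic members of 0.11, and the 3 G1 members did not pass (Ccnd1 -0.19, Ccnd2 -0.09, Cdkn2c -0.08). Plk1 and Kif23 lost their calls in at least 1 fit without 1 library. Without the wild-type passage 15 libraries in the fit, where the shared spread is smaller, 16 members rose and 2 fell. That fit called 2766 of all genes, against 309 higher and 429 lower in the main fit, so the shares above are not its background.

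At passage 15 wild-type organoids had higher levels of both classes than at passage 5. Of 54 members 42 rose, against 24.7% of all genes tested, and 2 fell, against 26.6%. Replication members counted 20 higher and 0 lower (median 0.61), mitotic members 22 higher and 0 lower (median 0.55), beside a median of -0.02 over all genes. Licensing genes rose from 0.35 in Mcm10 to 0.96 in Gins2, fork genes that passed from 0.61 in the primase Prim1 to 0.70 in Pcna, and nucleotide supply genes from 0.45 in Rrm1 to 0.70 in Rrm2. The overlap with an opposite-strand gene makes the Gins2 counts uncertain here too. Mcm5 stood at 153, 139 and 145 CPM (log2 0.79 ± 0.048, adjusted p = 2.36e-11), Cdc6 at 42.3, 48.4 and 48.8 CPM (log2 0.42 ± 0.068, adjusted p = 3.01e-05) and Rrm2 at 164, 150.0 and 163 CPM (log2 0.70 ± 0.053, adjusted p = 9.32e-10), all above every passage 5 library. Pcna stood at 322, 229 and 287 CPM (log2 0.70 ± 0.079, adjusted p = 3.86e-07), with a wide spread between libraries.

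Of the G1/S regulators at passage 15, Ccne1 rose, at 34.9, 29.8 and 32.1 CPM (log2 0.33 ± 0.076, adjusted p = 0.00112). Ccne2, at 29.8, 33.2 and 33.6 CPM, E2f1, at 23.2, 18.7 and 22.2 CPM, and E2f2, at 24.8, 22.7 and 26.1 CPM, did not pass and overlapped passage 5. Their adjusted p-values were 0.159, 0.129 and 0.579. E2f2 was thus back near its passage 5 level after the higher values of passage 10.

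Mitotic members rose unevenly. Ccna2 stood at 189, 199.5 and 214 CPM (log2 0.67 ± 0.048, adjusted p = 4.34e-10), Ccnb1 at 118, 126 and 134 CPM (log2 0.55 ± 0.058, adjusted p = 1.3e-07) and Cdk1 at 175, 142 and 157 CPM (log2 0.70 ± 0.065, adjusted p = 2.21e-08). Mybl2 at 48.0, 44.1 and 44.1 CPM (log2 0.96 ± 0.076, adjusted p = 1.95e-09) and the survivin gene Birc5 (log2 0.96 ± 0.12, adjusted p = 8.72e-07) had the largest values, and Foxm1 stood at 48.6, 58.3 and 48.8 CPM (log2 0.38 ± 0.073, adjusted p = 0.000235). The ranges of those that rose were 0.22 in Plk1 to 0.86 in the phosphatase Cdc25c for mitotic entry, 0.35 in Bub1b to 0.64 in Cdc20 for the checkpoint, and 0.15 in Kif23 to 0.64 in Tpx2 for the spindle. Top2a stood at 482, 674 and 539 CPM (log2 0.33 ± 0.076, adjusted p = 0.00124). Mki67 stood at 446, 729.6 and 446 CPM, so replicate 2 lay above and replicates 1 and 3 below every passage 5 library (log2 0.04 ± 0.12, adjusted p = 0.798). Of the G1 members, Ccnd1 fell, at 574, 819.5 and 766 CPM (log2 -0.56 ± 0.081, adjusted p = 8.11e-06), as did Ccnd2, at 1068, 1704 and 1396 CPM (log2 -0.69 ± 0.097, adjusted p = 6.77e-06), and Cdkn2c, at 18.2, 17.1 and 20.5 CPM, did not pass (adjusted p = 0.123).

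Replicates 1 and 3 of this group departed from the other libraries with gene length. Over all genes, log2 level fell by 0.166 per doubling of exonic length in replicate 1 and by 0.061 in replicate 3 relative to the other libraries, while replicate 2 (0.017) lay in the range of the other 18 (0.002 to 0.026). Over the 54 members, Spearman's rho between length and deviation from the gene's mean was -0.59 in replicate 1, 0.12 in replicate 2 and -0.6 in replicate 3, and between -0.19 and 0.34 in the other 18 libraries. Genes are not independent replicates, so no p is given. Replication members are the shorter class, with a median exonic length of 3868 bases against 4654 in mitotic members. With replicate 2 alone as wild type at passage 15, a setting chosen after seeing the data, the median was 0.49 over replication members and 0.53 over mitotic members. That arm is 1 library, whose spread would have to come from the other groups, so these are values with no test. Cenpf went from -0.15 to 0.40. Without replicate 2, Mki67 was at -0.24 and 4 members fell instead of 2.

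**Figure D4:**
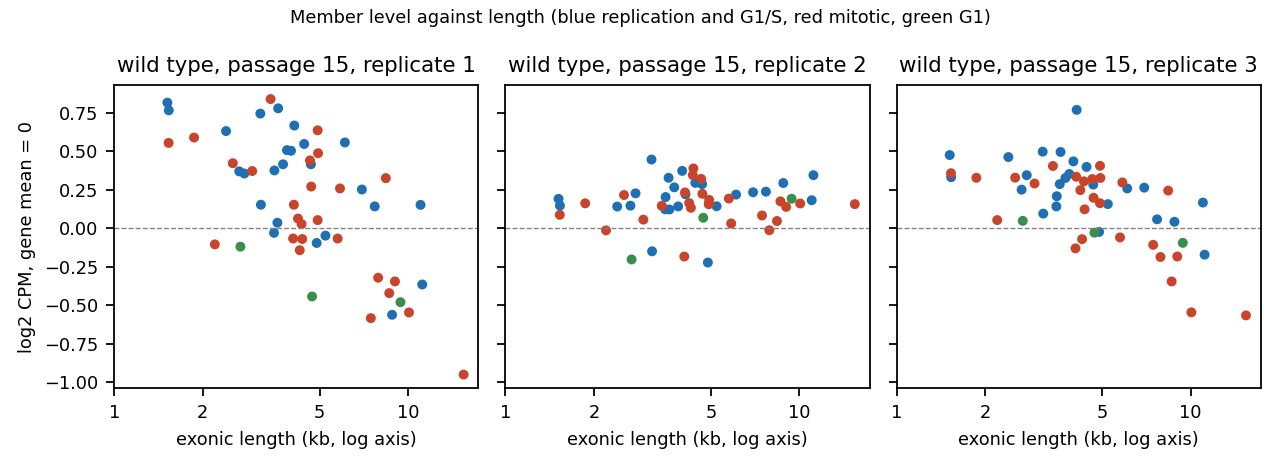
Deviation of each member from its mean over 21 libraries (log2 CPM) against exonic length (log axis) in the 3 wild-type passage 15 libraries. Long members are low in replicates 1 and 3 (rho -0.59 and -0.6) and not in replicate 2 (rho 0.12).

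In knockout organoids few members passed the test between passages. At passage 10 against 5, 7 of 54 members rose, against 3.89% of all genes tested, and 0 fell, against 3.72%. They were Mcm2 (0.17), Mcm3 (0.19), Ccna2 (0.18), Ccnb1 (0.31), Aurkb (0.25), Kif11 (0.49) and Mybl2 (0.32), with adjusted p-values of 0.00161 for Kif11 and 0.000876 for Ccnb1. Replication members had a median of 0.09 and mitotic members of 0.18, and Ccnd1, Ccnd2 and Cdkn2c did not pass. Calls of Aurkb, Ccna2, Mcm2 and Mcm3 were lost in at least 1 fit without 1 library. Without the wild-type passage 15 libraries in the fit 28 members rose. That fit called 3330 of all genes, against 588 higher and 562 lower in the main fit, so the shares above are not its background.

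At passage 15 against 5, 2 knockout members rose, against 5.77% of all genes tested, and 1 fell, against 7.20%, shares no larger than the background. Tyms rose (log2 0.41 ± 0.07, adjusted p = 0.000291), with passage 15 libraries at 124, 132 and 125 CPM against 96.7, 92.5 and 98.9, as did Kif11 (log2 0.30 ± 0.096, adjusted p = 0.0439), whose call was lost in each of the 6 fits without 1 library. Ccnd1 fell further, to 554, 560.0 and 559.6 CPM (log2 -0.40 ± 0.081, adjusted p = 0.00135), the lowest group for this gene by mean. Ccnd2 stayed at 1200.0, 1196 and 1207 CPM (log2 0.02 ± 0.096, adjusted p = 0.948), and Cdkn2c was at 21.7, 24.9 and 22.8 CPM (log2 0.21 ± 0.098, adjusted p = 0.201). Class medians were 0.09 for replication and 0.03 for mitotic members. Without the wild-type passage 15 libraries in the fit 16 members rose and 6 fell. That fit called 4492 of all genes, against 872 higher and 1088 lower in the main fit, so the shares above are not its background.

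At passage 15 knockout organoids had fewer replication transcripts than wild type in the main fit, and mitotic members went both ways. Knockout was higher than wild type in 11 of 54 members, against 23.6% of all genes tested, and lower in 25, against 25.3%, so the share that was higher did not exceed the background. In a fit of these 2 groups alone, which uses the wide spread of the wild-type libraries, 0 members were higher and 3 lower. That fit called 2735 of all genes, against 3568 higher and 3828 lower in the main fit, so the shares above are not its background. In the main fit replication members counted 1 higher and 14 lower (median -0.18) and mitotic members 9 higher and 10 lower (median -0.05). Mcm5 stood at 121, 114 and 117 CPM in knockout (log2 -0.31 ± 0.047, adjusted p = 1.65e-05), below all wild-type libraries, and Cdt1, a licensing factor, had the lowest value (log2 -0.64 ± 0.078, adjusted p = 1.05e-06). Rrm2 stood at 132, 131 and 134 CPM (log2 -0.26 ± 0.052, adjusted p = 0.00036), Pcna at 236, 228 and 224 CPM, overlapping wild type (log2 -0.28 ± 0.079, adjusted p = 0.00561), and Cdc6 at 52.2, 51.1 and 46.8 CPM (log2 0.10 ± 0.066, adjusted p = 0.2). Of the G1/S regulators, Ccne1 was lower, at 26.2, 27.2 and 30.3 CPM (log2 -0.21 ± 0.074, adjusted p = 0.0261), and E2f1 was the replication member that was higher, at 22.9, 25.0 and 26.2 CPM (log2 0.21 ± 0.079, adjusted p = 0.0317), both with overlapping groups. Ccne2 stood at 33.0, 38.3 and 38.4 CPM and E2f2 at 26.0, 27.1 and 26.4 CPM, neither past the threshold.

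Of the 7 mitotic entry genes 5 were lower in knockout at passage 15, from -0.31 in Aurka to -0.15 in Ccnb1, with Plk1 higher (0.19). Ccna2 stood at 187, 188 and 186 CPM (log2 -0.10 ± 0.048, adjusted p = 0.0778), Ccnb1 at 119.6, 107 and 114 CPM and Cdk1 at 138, 127 and 137 CPM (log2 -0.23 ± 0.065, adjusted p = 0.00584). Several chromosome and spindle genes were higher, among them Cenpf (0.55), Kif11 (0.55), Mki67 at 761, 774 and 751 CPM (log2 0.49 ± 0.12, adjusted p = 0.00188) and Top2a at 703, 699 and 698 CPM (log2 0.31 ± 0.076, adjusted p = 0.00238). Kif23 (0.23), Nusap1 (0.23) and Bub1b (0.20) were higher too. Cdc20 (-0.40), Birc5 (-0.29), Kif20a (-0.24) and Tpx2 (-0.14) were lower, as was Mybl2, at 39.8, 41.2 and 37.8 CPM (log2 -0.20 ± 0.073, adjusted p = 0.0306), while Foxm1, at 60.7, 65.1 and 60.8 CPM, was higher (log2 0.26 ± 0.071, adjusted p = 0.00523). Over the 54 members these values rose with exonic length (rho 0.52). Of the G1 members Ccnd1 was lower (log2 -0.37 ± 0.081, adjusted p = 0.000887), Ccnd2 did not pass (log2 -0.21 ± 0.096, adjusted p = 0.0762) and Cdkn2c was higher (log2 0.31 ± 0.1, adjusted p = 0.0133).

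These passage 15 calls depended on how the spread was estimated, as the fit of 2 groups shows, and on the wild-type libraries used. With replicate 2 alone as wild type, again values with no test, the median was -0.07 over replication members and 0.04 over mitotic members. Mki67 went from 0.49 to 0.06, Top2a from 0.31 to 0.05 and Cenpf from 0.55 to 0.01, and Rfc3, Pole, Prim1, Ccnb2, Birc5 and Cenpe changed sign. In fits without 1 library 16 of the 36 calls were lost at least once.

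The genotype effect, that is the difference between knockout and wild type, itself changed between passages 15 and 5. For passage 15 against 5, the medians of replication and mitotic members were 0.61 and 0.55 in wild type and 0.09 and 0.03 in knockout. In the test of the changed genotype effect 2 members were higher, against 19.7% of all genes tested, and 36 lower, against 18.6%. Replication members counted 0 higher and 18 lower (median -0.42) and mitotic members 1 higher and 18 lower (median -0.48). The lowest values were in Aurka (log2 -0.93 ± 0.081, adjusted p = 1.52e-08), Mybl2 (log2 -0.92 ± 0.11, adjusted p = 7.93e-07) and Cdt1 (log2 -0.89 ± 0.11, adjusted p = 2.61e-06), and Ccnd2 (log2 0.71 ± 0.14, adjusted p = 0.000383) and Nusap1 (log2 0.20 ± 0.071, adjusted p = 0.0336) were higher. In the fit of only these 4 groups 1 member was higher, and replication members counted 18 and mitotic members 17 lower. The share of all genes called in that fit is not given here. With replicate 2 alone as wild type at passage 15 the medians were -0.39 and -0.49, values with no test. Calls of Nusap1 and Top2a were lost in at least 1 fit without 1 library.

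In both classes, the median over members in every library of wild type at passages 5 and 10 and of Mist1- organoids lay below that of every other library. The median deviation of the replication members from their means was -0.28 to -0.24 in wild type at passage 5, -0.23 to -0.19 at passage 10 and 0.22 to 0.38 at passage 15. It was 0.06 to 0.09, 0.14 to 0.16 and 0.11 to 0.17 in knockout at the same passages. For mitotic members the ranges were -0.35 to -0.33, -0.25 to -0.23 and 0.06 to 0.22 in wild type and 0.12 to 0.14, 0.29 to 0.31 and 0.12 to 0.16 in knockout. In Mist1- organoids replication members were at -0.19 in all 3 libraries and mitotic members at -0.1 to -0.05. The mitotic median lay above the replication median by 0.09 to 0.14 in Mist1- and by 0.15 to 0.17 in knockout at passage 10. It lay below by 0.07 to 0.09 in wild type at passage 5 and by 0.06 to 0.32 at passage 15, with the widest gap in replicate 1. The all-gene median was within -0.02 to 0.01 in every library. These medians summarise chosen genes and were not tested.

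**Figure D5:**
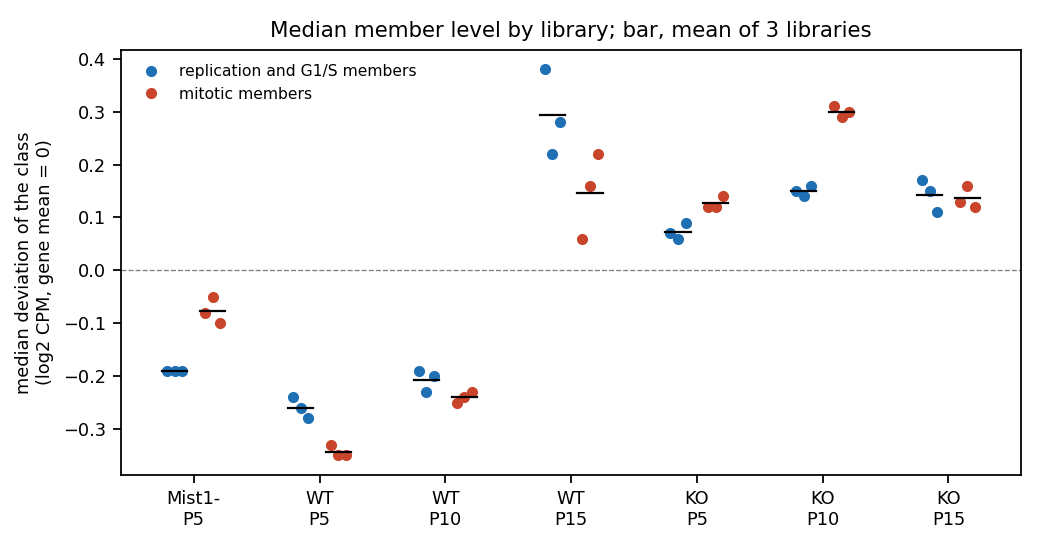
Median deviation (log2 CPM, mean of each gene over 21 libraries at 0) of the 25 replication and G1/S members (blue) and the 26 mitotic members (red) in each library, with the mean of 3 libraries as a bar. Wild type at passages 5 and 10 is lowest, and mitotic members are highest in knockout at passage 10 (0.29 to 0.31).

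Other genes of the pathway were counted in the same way. As background for the lists below, 13.0% of all genes tested rose and 17.0% fell in knockout at passage 5. At passage 10 these shares were 15.9% and 18.5%, and in knockout against wild type at passage 15 they were 23.6% and 25.3%. They were 24.7% and 26.6% in wild type at passage 15 against 5, and 18.8% and 16.2% in Mist1+ against Mist1-. Of 48 further replication genes, 28 rose and 0 fell in knockout at passage 5 (median 0.26), such as Dbf4, the activator of CDC7 kinase (log2 0.46 ± 0.054, adjusted p = 1.15e-06), and 39 rose and 0 fell at passage 10 (median 0.35), such as the polymerase subunit Pola2 (log2 0.70 ± 0.072, adjusted p = 1.97e-07). In wild type at passage 15 against 5, 40 rose and 0 fell (median 0.53), such as Uhrf1, which guides maintenance DNA methylation (log2 0.67 ± 0.057, adjusted p = 6.31e-09). In Mist1+ against Mist1-, 2 rose and 11 fell (median -0.1), with the histone chaperone subunit Chaf1a the most certain of those that fell (log2 -0.66 ± 0.063, adjusted p = 2.93e-08). At passage 15 in knockout against wild type, 1 rose and 23 fell.

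Of 75 further mitotic genes, 64 rose and 1 fell in knockout at passage 5 (median 0.46), such as Racgap1, which acts in cytokinesis (log2 0.67 ± 0.051, adjusted p = 1.9e-09), and 66 rose and 1 fell at passage 10 (median 0.53), such as Ckap2l (log2 0.75 ± 0.061, adjusted p = 5.57e-09). The gene that fell both times was Psrc1 (log2 -0.61 ± 0.071, adjusted p = 9.7e-07 at passage 5, and log2 -0.50 ± 0.072, adjusted p = 1.5e-05 at passage 10). At passage 15 Psrc1 and Gtse1 had the smallest p-values among these 75 genes in knockout against wild type (log2 -1.61 ± 0.073, adjusted p = 1.65e-13, and log2 -1.27 ± 0.066, adjusted p = 1.75e-12). There 11 rose and 24 fell, beside 23.6% and 25.3% of all genes tested, so the share that rose was below the background. Wild type at passage 15 against 5 had 62 higher and 0 lower (median 0.52), and Mist1+ against Mist1- had 3 higher and 38 lower (median -0.26), with the cohesin protector Sgo1 among the lower (log2 -0.88 ± 0.07, adjusted p = 1.83e-09).

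Genes of G1 and CDK control did not move as a block. Of 33, 7 rose and 3 fell in knockout at passage 5 (median 0.04), beside 13.0% and 17.0% of all genes tested, and 9 rose and 4 fell at passage 10 (median 0.12), beside 15.9% and 18.5%. The shares that fell were below those of all genes. Among those that rose at passage 5 were E2f8 (log2 0.57 ± 0.12, adjusted p = 0.000653) and E2f6 (log2 0.41 ± 0.075, adjusted p = 0.000264). The inhibitor gene Cdkn1b rose at passage 5 (log2 0.29 ± 0.085, adjusted p = 0.011) and did not pass at passage 10 (log2 0.17 ± 0.084, adjusted p = 0.122). The inhibitor gene Cdkn1a, which encodes p21, fell at both (log2 -0.51 ± 0.054, adjusted p = 2.14e-07, and log2 -0.69 ± 0.054, adjusted p = 3.22e-09), as did Cdkn2a, which encodes p16 and p19ARF (log2 -1.21 ± 0.16, adjusted p = 4.09e-06, and log2 -0.92 ± 0.16, adjusted p = 0.00014). Cdkn1a was lower still at passage 15 in knockout (log2 -1.52 ± 0.056, adjusted p = 6.12e-15 against wild type). Mist1+ organoids had higher Cdkn2a (log2 1.25 ± 0.16, adjusted p = 1.76e-06) and lower Ccnd3 (log2 -0.76 ± 0.069, adjusted p = 1.6e-08), than Mist1-. Of 26 genes of replication stress and recombination, 15 rose and 0 fell in knockout at passage 5 (median 0.33), such as Rad54b (log2 0.67 ± 0.093, adjusted p = 9.07e-06), 18 rose and 0 fell at passage 10 (median 0.4), such as the nuclease Exo1 (log2 0.58 ± 0.074, adjusted p = 3.18e-06), and 4 rose and 0 fell at passage 15, where the share that rose was below the 23.6% of all genes tested.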

How the data were processed

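The deposited table holds raw counts per gene and FPKM made by the authors for 21 organoid libraries, per the file headers. 6 further libraries of the series have no columns in it and were not analysed here. Per the submitters' processing notes the tools were cutadapt 1.9.1, HISAT2 2.2.1 and HTSeq 0.6.1 on GRCm38.p5, and strand settings are not given in the sources used here. FPKM equalled counts per kilobase and 1e6 counts for 100% of values (tolerance 0.006).

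Counts were filtered (filterByExpr, minimum count 10, minimum total 15, 99.91% of counts kept), TMM-scaled and tested in 1 fit of all 7 groups with edgeR 4.0.16 in R 4.3.3 (quasi-likelihood, Benjamini-Hochberg over 15115 genes, threshold 0.05). Deviations used log2 CPM with a pseudocount of 0.5. The script was tested on simulated data. Replicate numbers were not used as a block: same-numbered libraries correlated at -0.035 to 0.139 in their deviations over 63 pairs (median -0.001). Differently numbered libraries correlated at -0.154 to 0.158 over 126 pairs (median 0.002). Depth, 13805585 to 19608956 counts, limits precision for low members.

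The members, pathway lists, marker lists and tests were chosen with earlier results of these data known. Named are, per comparison and role, the called members with the largest and smallest change, called members against their class, the 3 G1 members, and up to 2 genes a direction of each pathway list by smallest adjusted p. Alternatives were other scalings and filters, DESeq2 1.42.0, limma 3.58.1 on log2(FPKM + 1), fits of fewer groups, a replicate block and leaving out each library. Wild-type passage 15 as replicate 2 alone and a gene length offset were chosen after seeing the data. Exon overlaps came from GENCODE and promoters from RefSeq.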

Additional observations from a re-analysis of the deposited data

Results flagged for a closer look

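In 39 results the difference between knockout and wild type changed between passages, by edgeR's interaction test with an adjusted p under 0.05. The genotypes came from different mice, so genotype and donor cannot be told apart. The values are differences between 2 genotype effects on the log2 scale, and both effects draw on the same passage 5 libraries. Between passages 10 and 5 this held for E2f2 (-0.56, adjusted p = 0.00669), whose wild-type level was higher at passage 10.

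Between passages 15 and 5 the replication members with a lower genotype effect were Mcm2 (-0.38), Mcm3 (-0.66), Mcm4 (-0.42), Mcm5 (-0.77), Mcm6 (-0.49), Mcm7 (-0.73), Cdc6 (-0.33), Cdc45 (-0.44), Cdt1 (-0.89), Gins1 (-0.83), Gins2 (-0.85), Pcna (-0.58), Rfc3 (-0.55), Rfc4 (-0.53), Prim1 (-0.41), Rrm1 (-0.40), Rrm2 (-0.80) and Ccne1 (-0.35). The mitotic members with a lower effect were Ccna2 (-0.66), Ccnb1 (-0.68), Ccnb2 (-0.47), Cdk1 (-0.72), Cdc25c (-0.84), Aurka (-0.93), Cdc20 (-0.71), Bub1 (-0.64), Bub1b (-0.31), Mad2l1 (-0.48), Ttk (-0.39), Top2a (-0.30), Birc5 (-0.86), Aurkb (-0.49), Cenpa (-0.43), Kif20a (-0.62), Tpx2 (-0.73) and Mybl2 (-0.92). A higher effect was found for Nusap1 (0.20) and for Ccnd2 (0.71), whose knockout level stayed near that of passage 5 while the wild-type level was lower at passage 15. Adjusted p-values ranged from 1.28e-08 in Mcm5 to 0.0336 in Nusap1. All 38 of these rest on the 3 wild-type passage 15 libraries, which differ from each other, and the part of that spread was not tested beyond the alternatives given under the processing.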

How the results depend on the processing

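Of values recomputed under alternatives other than leaving out a library, 4984 kept their call or stayed uncalled. A further 10 changed sign with a call in at least 1 of the 2 fits, all with replicate 2 alone as wild type at passage 15. That arm is 1 library, so its calls are not a test and the 10 are a description. The rest crossed the threshold. Sign changes of values uncalled in both fits were neither counted nor listed below. In wild type at passage 15 against 5, for example, the lowest replication value was 0.06, and -0.04 with replicate 2 alone. Fits of only the groups compared, and fits without the wild-type passage 15 libraries, use a smaller shared spread except where that group is compared. In this order they called 7035 and 7095 genes for knockout against wild type at passage 5. Wild type at passage 10 against 5 had 16 and 16 members higher, 2 and 2 lower, and 2827 and 2766 genes called. Knockout at passage 10 against 5 had 28 and 28 higher and 3059 and 3330 genes. Knockout at passage 15 against 5 had 17 and 16 higher, 7 and 6 lower, and 4606 and 4492 genes. The interaction at passage 10 had 7 and 7 higher, 2 and 2 lower, and 2951 and 3018 genes. With only the groups compared, knockout against wild type at passage 15 had 0 members higher and 3 lower and 2735 genes called, wild type at passage 15 against 5 had 3631 genes, and the interaction at passage 15 had 1 member higher, as it did with library totals alone, no low-count filter and limma.

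Knockout at passage 10 against 5 had 4 members higher with no low-count filter, 12 with DESeq2, 11 with limma and 14 with the gene length offset. Knockout at passage 15 against 5 had 1 higher with library totals alone and 1 with a mean FPKM of at least 1, 2 lower with limma, and 4 higher and 3 lower with the length offset. That offset gave 5 higher for wild type at passage 10 against 5 and 2 for the interaction at passage 10, where DESeq2 and limma each gave 1. With replicate 2 alone as wild type at passage 15, the sign changed for Rfc3 (0.05), Pole (-0.16), Prim1 (0.17), Ccnb2 (0.03), Birc5 (0.05) and Cenpe (-0.12) in knockout against wild type, for Cenpf (0.40) in wild type at passage 15 against 5, and for Mki67 (-0.42), Cenpf (-0.42) and Kif11 (-0.24) in the interaction. Apart from fewer samples or a smaller spread, the cause was not tested.

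Leaving out 1 library gave 1 to 3 members higher in wild type at passage 10 against 5, 2 to 4 lower at passage 15 against 5 (4 without wild-type passage 15 replicate 2), 3 to 6 higher in knockout at passage 10 against 5, 1 to 1 higher at passage 15 against 5, and 1 to 4 higher in the interaction at passage 15. Mki67 ranged from -0.24 to 0.17 in wild type at passage 15 against 5, and Kif11 from -0.15 to 0.17 in the interaction. With the replicate block, same-numbered libraries being matched by number alone, members higher and lower were 4 and 22 for Mist1+ against Mist1-, 44 and 2, 45 and 3, and 12 and 25 for knockout against wild type at passages 5, 10 and 15, 3 and 0 and 42 and 2 for wild type at passages 10 and 15 against 5, and 5 and 0 and 3 and 1 for knockout. The interactions had 0 and 1 at passage 10 and 2 and 36 at passage 15. Shares of all genes called are not given for the replicate block or for the fits without 1 library. The counts of members under these settings therefore have no background beside them. Depth limits the low members most, the lowest count being 154, for Gins1.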

Other observations

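The pathway genes outside the members showed further differences with passage. In the interaction of genotype with passage 15, where 19.7% of all genes tested were higher and 18.6% lower, 0 of 48 other replication genes had a higher effect and 32 a lower one (median -0.43), such as Uhrf1 (log2 -0.57 ± 0.08, adjusted p = 1.11e-05 by edgeR). Of 75 other mitotic genes 0 were higher and 52 lower (median -0.52), such as Gtse1 (log2 -1.18 ± 0.093, adjusted p = 2.79e-09). Of 33 genes of G1 and CDK control 5 were higher and 10 lower (median -0.12), with Cdkn1a among the lower (log2 -1.01 ± 0.077, adjusted p = 2.05e-09). Of 26 genes of replication stress and recombination 0 were higher and 6 lower (median -0.21), and the share that was lower was near that of all genes.

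In knockout, Cdkn1a fell with each later passage tested against passage 5. It was at log2 -0.41 ± 0.055, adjusted p = 2.2e-05 at passage 10 and at log2 -1.05 ± 0.056, adjusted p = 1.53e-11 at passage 15, where its mean level was 44.7 CPM against 92.3 CPM at passage 5.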
